A study of Mus musculus with 4 samples.

Results

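Axon guidance ligands and receptors were described in the dentate gyrus (DG) of mice given electroconvulsive stimulation (ECS), a rodent model of electroconvulsive therapy. Every probe set annotated to a single gene symbol of the semaphorin, plexin, neuropilin, ephrin, Eph, slit, Robo, netrin, Dcc or Unc5 names was taken, whatever its signal. This gave 99 probe sets for 58 genes, of 22626 probe sets and 12393 genes on the array. One of the 58, Unc50, matched the letters of the Unc5 names only. It encodes a protein of the inner nuclear membrane, and without it the set held 57 guidance genes. All groups were C57Bl/6 mice without a transgene or mutation, and the study's methods give males 8 weeks old at purchase. The 11 ECS mice were dissected 1 h after the last of 11 sessions. The 10 ECS mice were dissected 48 h after the last of 10 sessions, and the study describes a sham session for them 1 h before they were killed. The single ECS mice were dissected 1 h after their only session, and the sham mice 1 h after the same handling without a current. ECS was a bilateral current of 25 mA for 1 s through ear clips, in pulses of 0.5 ms at 100 per s under isoflurane, given 4 times weekly over at most 3 weeks. RNA of 3 mice was pooled for each group and measured on 1 array, so no group had a replicate and no test could be made.

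Guidance molecules steer growing axons by attracting or repelling the growth cone. In the adult brain many of them are kept, where they act on spines, synapses and newly born neurons. Class 3 semaphorins are secreted and signal through neuropilins and plexins, while most other semaphorins sit in the membrane and bind plexins directly. Ephrin-A ligands are held by a lipid anchor and ephrin-B ligands span the membrane, and both kinds signal to Eph receptor kinases on touching cells. Slits repel axons through Robo receptors. Netrins attract through Dcc and repel through Unc5 receptors. In the mouse hippocampus, plexins and membrane semaphorins help to place the mossy fibers, the axons of dentate granule cells (GCs).

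The values are signals of Microarray Suite 5.0 (MAS5), a brightness per probe set on a linear scale. Signals of 12 or less were treated as lying at a floor, which was the 25th percentile of all signals. The median signal of all probe sets was 56.7 on the 11 ECS array, 62.4 on the 10 ECS array, 56.3 on the single ECS array and 69.3 on the sham array, so the sham array was the brightest. Of 11 activity-regulated early genes such as Fos and Arc, 10 were on the array. All 10 were at least 1.5-fold higher 1 h after a session, both in single ECS against sham and in 11 ECS against 10 ECS. Prox1, the defining marker of GCs, had 62.7 with 11 ECS, 57.1 with 10 ECS, 69.8 with single ECS and 68.6 with sham, all above the floor. Of 7 GC markers on the array, 4 were at least 1.5-fold lower with single ECS than with sham, beside 15.3% of all genes. With 11 ECS against 10 ECS 3 were lower, beside 6.91%, and with 10 ECS against sham 3, beside 7.18%. With 11 ECS against single ECS 4 were lower, beside 4.3%. Dsp and Tdo2 were lower each time, while Prox1 and Stxbp6 passed 1.5-fold in no comparison. The study names Calb1 and Tdo2 as mature GC markers, with Dsp and Il1r1 of similar developmental profile. Of 8 GABA interneuron markers, 0 passed 1.5-fold in any of these comparisons. A fold of 1.5 was used as a size and not as a test. It was about 2 SD of how far probe sets of 1 gene lay apart, which amounted to between 1.46-fold and 1.50-fold. RNA came from tissue of many cell types, so fewer cells of a type and less RNA per cell cannot be told apart.

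Most of the family was measured in the DG, and every class held members above and members at the floor. Of the 58 genes, 42 were above the floor on all 4 arrays, 11 on some, and 5 on none. The 5 were Sema3f, Epha1, Ephb4, Robo3, the Robo receptor of commissural axons, and Ntn4. Signals of different probe sets do not compare RNA levels between genes, so only each gene's own signals were compared across arrays. Among 26 semaphorin, plexin and neuropilin genes, 20 were above the floor on all arrays, as were 13 of 19 ephrin and Eph genes, 4 of 6 slit and Robo genes and 5 of 7 netrin, Dcc and Unc5 genes.

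The ligand and receptor sides were both present. Nrp1, the neuropilin that binds Sema3a, had signals of 1952.0 on the 11 ECS, 1764.5 on the 10 ECS, 1991.8 on the single ECS and 2077.4 on the sham array. Its 4 values lay within 1.18-fold of each other. Epha7, an EphA receptor, had 1421.2 with 11 ECS, 1680.4 with 10 ECS, 1331.9 with single ECS and 1754.5 with sham. Epha4, which binds ephrins of both kinds, had 679.7, 897.3, 824.9 and 1060.6 on the same arrays in the same order. By these probe sets both Eph receptors were lower on either array 1 h after a session than on the array it is compared with. A second probe set of Epha4 had 153.6 with 11 ECS, against 188.9 with 10 ECS, but 179.5 with single ECS, against 160.7 with sham, so the direction after a single ECS was not shared. Slit1 had 230.8 with 11 ECS, 224.9 with 10 ECS, 278.9 with single ECS and 286.9 with sham, and Slit2 had 391.7, 378.5, 328.4 and 408.9. Neither slit differed by 1.5-fold between any 2 of the arrays compared. Robo1, a receptor for slits, had 319.8 with 11 ECS, 400.3 with 10 ECS, 413.2 with single ECS and 539.9 with sham. Unc5c, a repulsive netrin receptor, had 264.9, 308.7, 246.5 and 339.7 in that order. Ntn1, the netrin that attracts axons through Dcc, was dim, at 44.2 with 11 ECS, 47.3 with 10 ECS, 38.9 with single ECS and 51.9 with sham.

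**Figure D1:**
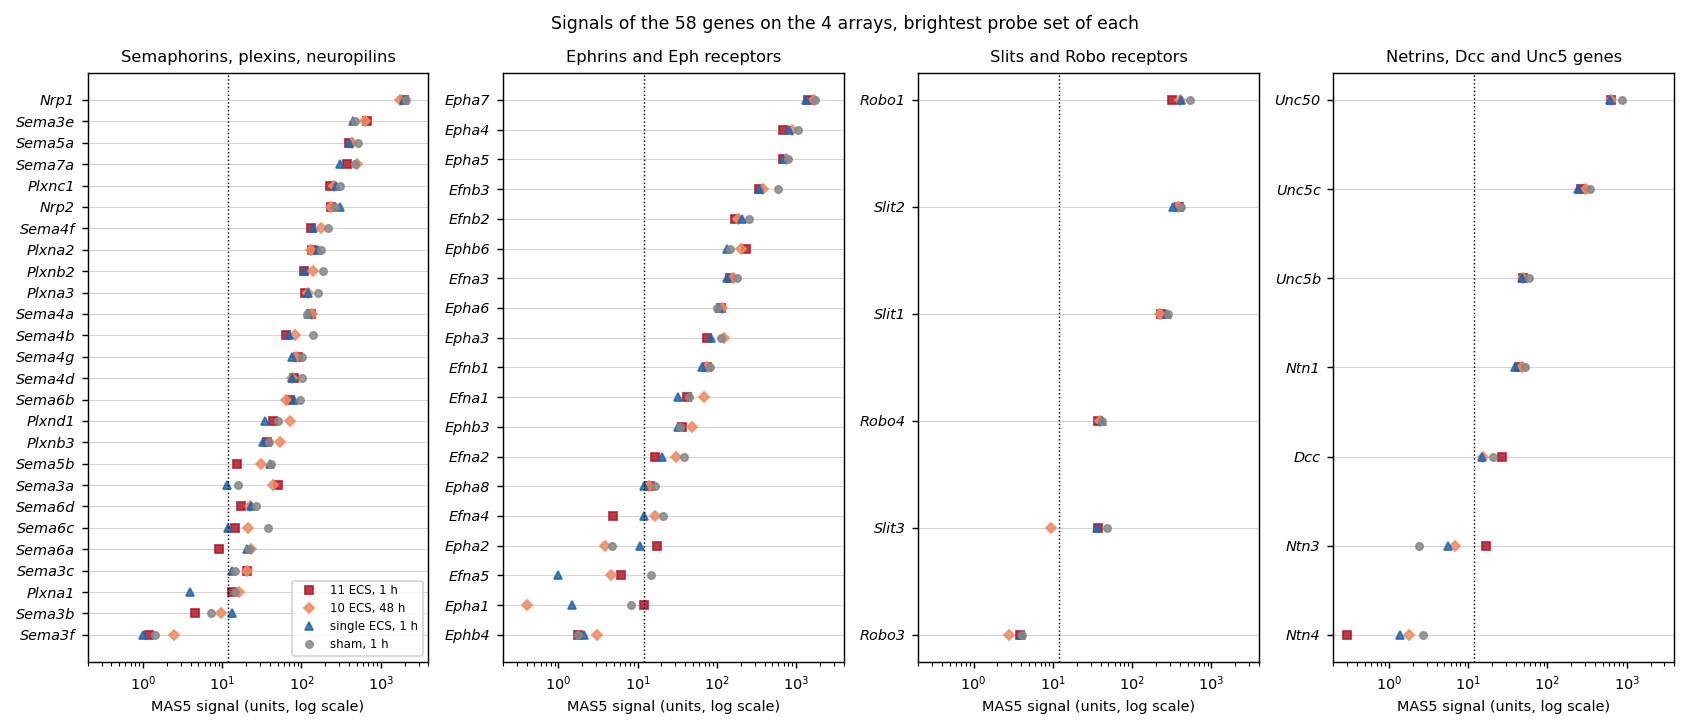
Signal of the brightest probe set of each of the 58 genes, on a log axis in MAS5 units, with 1 point per array and 1 panel per class. The dotted line is the floor of 12. Most genes have their 4 points close together, while with signals under the floor taken as the floor the points of Sema3a, Slit3, Sema6c, Sema5b, Efna2, Sema4b, Efna1 and Plxnd1 spread over more than 2-fold.

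The sham array was the highest of the 4 for 28 of the 42 genes measured throughout, or 66.7%. Over all 8999 genes measured throughout it was the highest for 60.5%. The median signal of the 58 genes was 67.85 with 11 ECS, 73.5 with 10 ECS, 67.2 with single ECS and 88.35 with sham. The members had the same order of arrays as the array medians, so counts of members stand beside the shares of all genes that passed the same limit.

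The first response was read from single ECS against sham, in mice that had no earlier session. No guidance gene was at least 1.5-fold higher and 8 of 51 with a value were lower, or 15.7%. Of all 10133 genes, 3.07% were higher and 15.3% lower, so the share of lower members was near that of all genes. The limit of 2-fold was passed by 2 members, both lower, and by 4.1% of all genes. The median log2 ratio of the 51 was -0.36, against -0.24 over all genes. When each array was scaled to the same median signal, which moved the median of all genes to 0.05, 0 were higher and 3 lower, namely Sema4b, Efna2 and Sema6c. Of all genes, 6.85% were then higher and 5.32% lower. Quantile normalization gave 0 higher and 4 lower, with Efnb3 as the other one, beside 5.56% and 5.55% of all genes.

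Of the 8 lower members, 5 were semaphorin or plexin genes and 3 were ephrins. Sema4b, a membrane semaphorin, had a signal of 68.6 with single ECS, against 141.4 with sham, and 63.4 with 11 ECS, against 82.6 with 10 ECS. It was 2.06-fold lower after a single ECS and 1.30-fold lower after the 11th. The sham array stood apart from the other 3. Efnb3, a membrane-spanning ephrin, followed the same course, with 338.1 for single ECS, against 597.8 for sham, and 344.3 for 11 ECS, against 381.8 for 10 ECS. The 3 ECS arrays lay close together and the sham array was 1.77-fold above the single ECS array. Plxnb2, a receptor for class 4 semaphorins, had 107.7 with single ECS, against 189.4 with sham, and 108.1 with 11 ECS, against 139.8 with 10 ECS. Sema4f had 139.3 with single ECS, against 215.1 with sham, and 133.2 with 11 ECS, against 174.0 with 10 ECS. For Plxnb2 and Sema4f the array 1 h after a session was the lower one in both comparisons, by 1.76-fold and 1.54-fold after a single ECS and by 1.29-fold and 1.31-fold after the 11th.

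Sema7a, a lipid-anchored semaphorin that binds Plxnc1 and integrins, had 302.7 with single ECS, against 466.5 with sham, and 369.8 with 11 ECS, against 502.1 with 10 ECS. It was lower 1 h after a session each time, by 1.54-fold and 1.36-fold, and the 2 arrays after a session were both below the other 2. Its second probe set had 20.3 with single ECS and 18.1 with sham, and did not show the first difference. Sema6c was named among the lower genes from a dim probe set at 11.7 with single ECS, against 38.1 with sham, a ratio of at least 3.18-fold. A second probe set of Sema6c went the other way, at 31.6 with single ECS and 7.8 with sham, so no direction could be given for this gene. Efna4, with 12.2 for single ECS and 21.0 for sham, was near the floor.

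Efna2, a lipid-anchored ephrin, was the only member at least 1.5-fold lower after both sessions, also with equal medians. Its signal was 20.2 with single ECS, against 38.7 with sham, and 16.5 with 11 ECS, against 30.9 with 10 ECS. It was lower by 1.92-fold in the first pair of arrays and by 1.87-fold in the other, and the 2 pairs share no array. All 4 signals were dim, and the gene had 1 probe set. Among 49 members with both ratios this was 2.04%, and 2.94% of all 9730 genes were lower in both. No member was higher in both, while 1.43% of all genes were. The 250 bases before the start of Efna2 are shown because it was the one member with the same response in both pairs. They lie at chr10:80179232-80179481 on the plus strand of GRCm38.p6, from RefSeq, and hold 73.6% G and C. Capitals mark the 40 bases next to the start.
Efna2: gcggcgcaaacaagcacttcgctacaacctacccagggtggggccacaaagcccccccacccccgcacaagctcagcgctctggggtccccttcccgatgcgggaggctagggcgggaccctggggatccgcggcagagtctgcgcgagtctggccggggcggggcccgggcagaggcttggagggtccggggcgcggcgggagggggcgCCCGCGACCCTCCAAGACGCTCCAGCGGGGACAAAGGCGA

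The response to the 11th session was read from 11 ECS against 10 ECS. Among 51 members with a value, 2 were at least 1.5-fold higher, or 3.92%, beside 3.47% of all 10046 genes. Another 6 were lower, or 11.8%, beside 6.91% of all genes. Only 1 member passed 2-fold, against 2.27% of all genes. The median was -0.12 for the members and -0.11 for all genes. With arrays scaled to the same median, 4 were higher and 5 lower, beside 5.68% and 4.60% of all genes. With quantile normalization 3 were higher and 5 lower, beside 5.07% and 4.40%.

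The members that passed the limit after the 11th session were not those that passed it after the first, apart from Efna2. Dcc, the attractive netrin receptor, had 26.7 with 11 ECS, against 15.6 with 10 ECS, and 14.9 with single ECS, against 20.4 with sham. It was 1.71-fold higher in the first pair and 1.37-fold lower in the second, with all signals dim. Slit3 had 36.7 with 11 ECS, against 9.6 with 10 ECS, and 36.2 with single ECS, against 48.2 with sham. The 10 ECS array was at the floor, so Slit3 was at least 3.06-fold higher after the 11th session, with that 1 array standing apart from the other 3. Sema5b, a membrane semaphorin with thrombospondin repeats, had 15.5 with 11 ECS, against 30.7 with 10 ECS, and 39.5 with single ECS, against 41.2 with sham. Here the 11 ECS array was the low one, by 1.98-fold. Sema6a, a ligand of A-type plexins, had 9.1 with 11 ECS, against 22.9 with 10 ECS, which is at least 1.91-fold lower. Its signals with single ECS and sham were 20.5 and 21.7.

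A further 3 genes were lower with 11 ECS than with 10 ECS, and for all of them the 10 ECS array was the highest of the 4. Plxnd1, the receptor for Sema3e, had 43.8 with 11 ECS, 72.1 with 10 ECS, 34.8 with single ECS and 51.1 with sham. Efna1 had 42.1, 68.0, 32.4 and 44.1 on those arrays in that order. Epha3, an EphA receptor, had 74.7 with 11 ECS, 123.5 with 10 ECS, 83.6 with single ECS and 112.7 with sham. The folds between 11 ECS and 10 ECS were 1.65, 1.62 and 1.65 for Plxnd1, Efna1 and Epha3. With arrays scaled to the same median, Plxnd1 and Efna1 were under 1.5-fold. A second, dim probe set of Epha3 went the other way, at 16.3 with 11 ECS and 10.4 with 10 ECS, and with the median over probe sets the log2 ratio of Epha3 was -0.14. After a single ECS the 3 genes were 1.47-fold, 1.36-fold and 1.35-fold lower than with sham, under the limit. Plxnb3, a receptor for Sema5a, had 36.4 with 11 ECS, 53.0 with 10 ECS, 32.3 with single ECS and 39.0 with sham, and Ephb3 had 36.5, 48.2, 32.5 and 34.1. They too were highest on the 10 ECS array, but by less than 1.5-fold over 11 ECS and over sham. Plxnb3 on the 10 ECS array was 1.64-fold above the single ECS array.

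**Figure D2:**
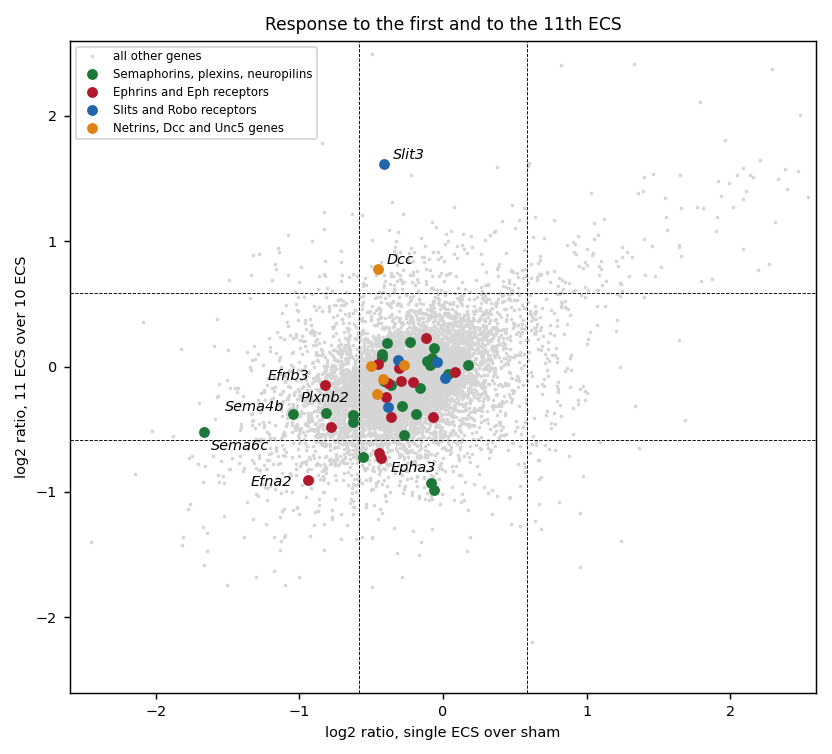
Log2 ratio of 11 ECS over 10 ECS, up the page, against that of single ECS over sham, across it, with 1 point per gene. Guidance genes are coloured by class and lie over 9681 other genes in grey, of which 22 fall outside the axes. Dashed lines mark 1.5-fold. Efna2 is the only coloured point in the corner that is lower in both, Slit3 is drawn at a lower bound, and no coloured point lies right of the right-hand line.

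Across the 49 members with both values, the log2 ratios of both responses correlated with a Pearson r of 0.22 and a Spearman rho of 0.30. Over all 9730 genes r was 0.52 and rho 0.39. The correlations describe genes on 4 arrays, and genes are not independent replicates. The difference of the 2 responses, as the log2 ratio for the 11th session minus that for the first, could be given for 42 members. Its median was 0.17, with 29 members above 0 and 13 below, and over all 8999 genes it was 0.13. Among these 42, which leave out members at the floor on any array, Dcc had the highest difference at 1.23, followed by Efnb3 at 0.67 and Sema4b at 0.66. Sema5b had the lowest at -0.93, followed by Ephb3 at -0.33 and Epha3 at -0.29. Of the 42, only Dcc lay beyond 1 log2 unit. Slit3, which was at the floor with 10 ECS and so is not among them, had a difference of at least 2.03.

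Arrays after earlier sessions were then set against arrays without them, as 10 ECS against sham and as 11 ECS against single ECS. These 2 comparisons share no array. In 10 ECS against sham, 2 of 50 members were at least 1.5-fold higher, or 4%, beside 2.98% of all 10202 genes, and 5 were lower, or 10%, beside 7.18%. The limit of 2-fold was passed by 1 member in each direction and by 1.93% of all genes. The median was -0.23 for members and -0.14 for all genes. This split turned with the scaling. With arrays scaled to the same median, 7 of 50 members were higher and 3 lower, beside 4.96% and 4.36% of all genes. With quantile normalization 6 were higher and 3 lower, beside 4.38% and 4.16%. The 3 lower ones were Sema4b, Sema6c and Slit3 under both scalings. The 6 higher ones under both were Sema3a, Sema3c, Efna1, Ephb3, Ephb6 and Plxnd1. In 11 ECS against single ECS, 4 of 52 members were higher, or 7.69%, beside 4.39% of all 9971 genes, and 2 were lower, or 3.85%, beside 4.3%. Again 1 member passed 2-fold each way, against 1.61% of all genes. The median was 0.05 for members and 0.0006 for all genes.

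Sema3a, Sema3c and Sema3e, secreted class 3 semaphorins, had higher signals on both arrays after earlier sessions. Of the 5 class 3 genes, 4 had a value in 11 ECS against single ECS and 2 of them, Sema3a and Sema3c, were at least 1.5-fold higher. Their median log2 ratio was 0.59, and it was 0.52 for the 3 with a value in 10 ECS against sham, of which 1 passed 1.5-fold. Sema3a, which collapses growth cones through Nrp1 and A-type plexins, had a signal of 50.2 with 11 ECS, 44.0 with 10 ECS, 11.4 with single ECS and 15.7 with sham. The 2 arrays after earlier sessions did not overlap with the other 2. Sema3a was 2.80-fold higher with 10 ECS than with sham, and at least 4.18-fold higher with 11 ECS than with single ECS, where it was under the floor. It was the only member at least 1.5-fold higher in both comparisons with the signals as deposited, or 2.04% of 49 members, beside 0.792% of all 9724 genes. With equal medians and with quantile normalization, Sema3c and Ephb6 were also at least 1.5-fold higher in both. The share of all genes higher in both was not computed under these 2 scalings. In 10 ECS against sham alone it was 4.96% and 4.38%, and in 11 ECS against single ECS alone 5.05% and 4.75%. With the signals as deposited, no member was lower in both, beside 1.16% of all genes. The 2 other probe sets of Sema3a were under the floor on all 4 arrays, so this rests on 1 probe set. With a floor of 50 signal units the log2 ratio of 11 ECS over single ECS was 0.0058, since only the 11 ECS signal lay above that floor.

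Sema3e, which binds Plxnd1 without a neuropilin, was measured far above the floor and had 667.3 with 11 ECS, 637.0 with 10 ECS, 452.6 with single ECS and 477.8 with sham. It was 1.33-fold higher with 10 ECS than with sham and 1.47-fold higher with 11 ECS than with single ECS. Its second probe set had 142.5, 125.9, 93.0 and 81.0 in the same order, and the last had 34.7, 31.2, 18.9 and 26.7. All 3 probe sets were higher on both arrays after earlier sessions. Sema3c, another secreted semaphorin, was dim, with 20.7 for 11 ECS, 20.5 for 10 ECS, 13.4 for single ECS and 14.3 for sham. It was 1.43-fold and 1.54-fold higher in the 2 comparisons. Of the other class 3 members, Sema3b had 4.6 with 11 ECS, 9.7 with 10 ECS, 13.4 with single ECS and 7.2 with sham, above the floor only with single ECS, and Sema3f was under it on all arrays.

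Sema3a and Sema3e were chosen for their sequence after their values were seen, as secreted semaphorins with higher signals on both arrays after earlier sessions. The bases before both starts are shown so that they can be set beside each other. Both genes lie on the plus strand of chromosome 5, Sema3a with its window at chr5:13396534-13396783 and Sema3e at chr5:14025026-14025275 of GRCm38.p6. The gene table lists 9 genes between them, 3 of them protein-coding. G and C make up 40.8% of the first window and 48.0% of the second, and capitals again mark the 40 bases next to the start.
Sema3a: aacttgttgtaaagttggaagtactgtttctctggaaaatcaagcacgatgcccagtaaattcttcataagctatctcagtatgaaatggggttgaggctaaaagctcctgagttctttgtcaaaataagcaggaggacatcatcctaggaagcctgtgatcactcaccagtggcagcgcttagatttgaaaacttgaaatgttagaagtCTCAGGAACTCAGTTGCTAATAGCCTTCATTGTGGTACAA
Sema3e: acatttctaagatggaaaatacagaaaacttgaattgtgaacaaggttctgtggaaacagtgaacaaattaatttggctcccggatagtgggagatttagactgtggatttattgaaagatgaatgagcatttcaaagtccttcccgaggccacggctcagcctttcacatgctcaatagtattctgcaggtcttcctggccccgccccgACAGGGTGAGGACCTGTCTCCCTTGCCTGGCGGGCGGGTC
In windows of 300 bases around the start, 3 motifs of activity-regulated factors were searched on both strands. The cAMP response element TGACGTCA was found in 1.79% of all 32851 promoters, the AP-1 site TGANTCA in 7.81% and the Egr site GCGTGGGCG in 0.612%. The first motif can hold no copy of the second. None of the 3 genes shown held any of them. Among 63 promoters of 50 members, the first motif was found in Epha2, the second in Sema4d and Sema6b, and the third in Efna3 and Plxna2. A match is a description of letters only, as is its absence.

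Among receptors, Ephb6 and the dim Dcc were at least 1.5-fold higher with 11 ECS than with single ECS. Ephb6, an Eph receptor without kinase activity, had 234.5 with 11 ECS, 200.2 with 10 ECS, 134.0 with single ECS and 145.4 with sham. The pairs of arrays did not overlap, and the ratios were 1.75-fold with 11 ECS over single ECS and 1.38-fold with 10 ECS over sham. No neuropilin and no A-type plexin was past 1.5-fold in any of the 4 comparisons. Nrp2, a neuropilin that receives Sema3c and other class 3 semaphorins, had 237.5 with 11 ECS, 235.8 with 10 ECS, 302.4 with single ECS and 268.5 with sham. Its ratios were 1.27-fold lower with 11 ECS than with single ECS and 1.14-fold lower with 10 ECS than with sham.

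Beside Sema3a, markers of fibroblasts of the brain's covering moved in both directions. Of 10 such markers, 5 were at least 1.5-fold higher and 2 lower with 10 ECS than with sham. With 11 ECS against single ECS, 4 were higher and 1 lower. Over all genes, 2.98% were higher and 7.18% lower in the first comparison, and 4.39% and 4.3% in the second. The median log2 ratio of the 10 was 0.50 in the first and 0.35 in the second. Col3a1 had 88.1 with 11 ECS, 105.9 with 10 ECS, 21.3 with single ECS and 17.9 with sham. Ogn had 21.5 with 11 ECS, 33.4 with 10 ECS, 175.8 with single ECS and 240.7 with sham. The summed signal of the 10 was 628.5, 718.5, 553.5 and 740.9 on those arrays in that order. Ogn made up 175.8 of the single ECS sum and 240.7 of the sham sum, but only 21.5 and 33.4 of the others. The study lists Ogn among the genes most lowered by both repeated ECS and an antidepressant drug. Of 10 markers of immature neurons, 2 were at least 1.5-fold higher with 10 ECS than with sham and 3 with 11 ECS than with single ECS, and 0 were lower. Dcx, a marker of newly born neurons, had 136.5 with 11 ECS, 137.7 with 10 ECS, 69.1 with single ECS and 91.1 with sham. Their summed signal was 6435.5, 5306.1, 5414.6 and 5215.2, with Neurod4 at the floor on all arrays. Of 8 astrocyte markers, 1 passed 1.5-fold, and it did so in both comparisons. This was Gfap, which reactive astrocytes raise, with 135.0 for 11 ECS, 114.1 for 10 ECS, 45.6 for single ECS and 49.3 for sham. The part of these cell types in the signals of Sema3a, Sema3e and Ephb6 was not tested.

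With the signals as deposited, Slit3, Sema4b, Efnb3, Sema6b and the discordant Sema6c were at least 1.5-fold lower with 10 ECS than with sham. None of them was lower by 1.5-fold with 11 ECS than with single ECS. With equal medians and with quantile normalization, Efnb3 and Sema6b were under the limit in 10 ECS against sham as well. Slit3, a secreted slit, was at least 4.02-fold lower with 10 ECS than with sham, but with 11 ECS and single ECS it differed by 1.01-fold. The low signal was thus that of 1 array and 1 probe set. The fibroblast markers given above moved both ways between the 10 ECS and sham arrays, and their part in the Slit3 signal was not tested. Sema4b was 1.71-fold lower and Efnb3 1.57-fold lower with 10 ECS than with sham. These ratios share the sham array with single ECS against sham, and in 11 ECS against single ECS the same genes differed by 1.08-fold and 1.02-fold. Efnb2, the related ephrin-B, had 170.4 with 11 ECS, 184.7 with 10 ECS, 209.8 with single ECS and 256.5 with sham, and was 1.39-fold lower with 10 ECS than with sham. Sema6b had 72.3 with 11 ECS, 63.2 with 10 ECS, 81.5 with single ECS and 95.4 with sham, and was 1.51-fold lower. Of 8 oligodendrocyte markers on the array, 2 were at least 1.5-fold lower with 10 ECS than with sham and 2 with single ECS than with sham. Over all genes the shares were 7.18% and 15.3%. Mobp, a myelin gene, had 615.5 with 11 ECS, 604.1 with 10 ECS, 602.7 with single ECS and 921.9 with sham. The sham array was the high one for Mobp as for Efnb3 and Sema4b, and for 60.5% of all genes measured throughout. Mbp, of the same list, had 4866.7 with 11 ECS, 4906.2 with 10 ECS, 4521.5 with single ECS and 5089.4 with sham. Ugt8a had 255.1, 281.0, 230.3 and 268.9 in that order, highest with 10 ECS. None of the 8 was at least 1.5-fold higher in either comparison. The part of these cells in the ephrin and semaphorin signals was not tested.

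Higher with 10 ECS than with sham, besides Sema3a, was Efna1, by 1.54-fold. It was 1.30-fold higher with 11 ECS than with single ECS. Lower with 11 ECS than with single ECS were Sema5b, by 2.55-fold, and Sema6a, by at least 1.71-fold. Both share the low 11 ECS array with the comparison against 10 ECS. Sema4a had 130.7 with 11 ECS, 136.5 with 10 ECS, 121.6 with single ECS and 118.6 with sham, and Epha6 had 114.1, 117.3, 106.4 and 100.4. Both were higher after earlier sessions by no more than 1.17-fold.

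By the brightest probe set, 39 of the 58 members passed 1.5-fold in no comparison, 34 of them with at least 1 value. Unc50 was among them, with 640.6 for 11 ECS, 639.5 for 10 ECS, 612.1 for single ECS and 868.9 for sham. Plxnc1, the plexin that binds Sema7a, had 230.3 with 11 ECS, 259.0 with 10 ECS, 271.6 with single ECS and 304.2 with sham. Its order of arrays differed from that of Sema7a. Dimmer probe sets of Plxnc1 were 1.80-fold and 1.60-fold lower with 11 ECS than with single ECS, at 15.8 against 28.5 and at 12.1 against 19.4. Another was 1.28-fold lower, at 38.7 against 49.5. Plxna2 and Plxna3, which take part in class 3 and class 6 semaphorin signaling, had signals of 131.7 to 174.8 and of 111.9 to 161.7. Sema5a ranged from 393.1 to 511.0, Epha5 from 680.4 to 790.7 and Efna3 from 136.0 to 177.6, each highest with sham. By the brightest probe set, Sema4d, Sema4g, Efnb1, Robo4, an endothelial Robo, and Unc5b differed by at most 1.35-fold in any comparison. A dimmer probe set of Efnb1 was 1.55-fold lower with 10 ECS than with sham, at 31.8 against 49.2. Another was 1.49-fold lower with 11 ECS than with single ECS, at 28.6 against 42.5. Sema6d was dim, at 17.2 to 26.7. Plxna1, Efna5, Epha2, Epha8, Ntn3 and Sema3b had no signal above 17.5 and were at the floor on 1 or more arrays. With arrays scaled to the same median, Epha2 and Ntn3 were more than 1.5-fold higher with 11 ECS than with 10 ECS and than with single ECS, as bounds.

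**Figure D3:**
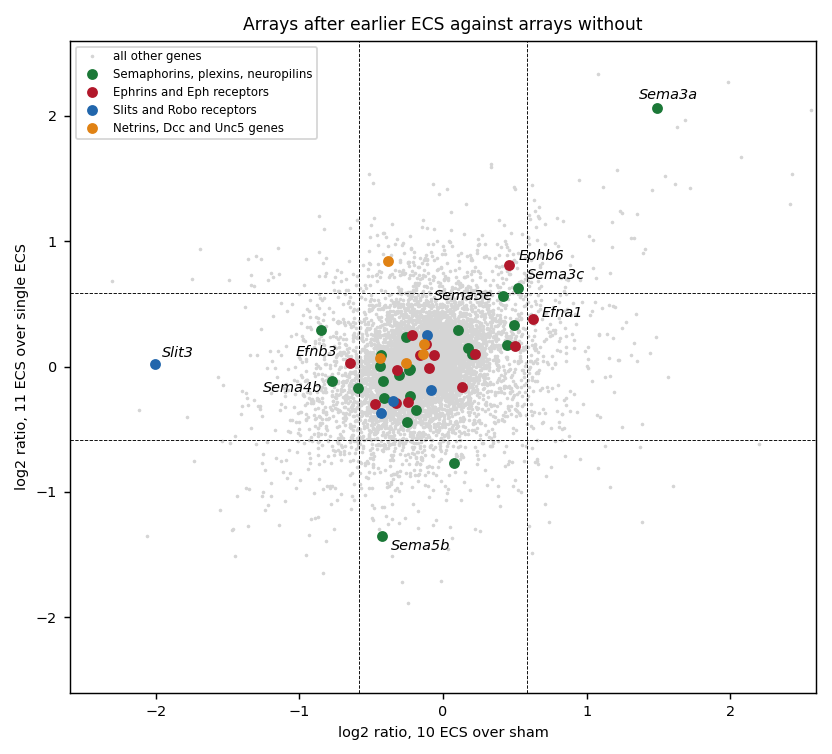
Log2 ratio of 11 ECS over single ECS, up the page, against that of 10 ECS over sham, across it, with 1 point per gene. Guidance genes are coloured by class and lie over 9675 other genes in grey, of which 3 fall outside the axes. Dashed lines mark 1.5-fold. With the signals as deposited, Sema3a is the only coloured point past both upper limits, and Sema3e, Sema3c and Ephb6 lie nearest to it, while Slit3 is drawn at a bound far to the left.

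Across the 49 members with both values, Pearson r between the 2 comparisons was 0.52 and Spearman rho 0.49, and across all 9724 genes 0.29 and 0.27. Sema3a lies far from the others in both, and rho rests on ranks only.

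Probe sets of the same gene gave the only repeat measurement here. Of the 58 genes, 26 had several probe sets, up to 4 each, and 32 had 1. Between probe sets of a member, where both were above the floor, the pooled SD of the log2 ratio was 0.28 for single ECS against sham, 0.19 for 11 ECS against 10 ECS, 0.24 for 10 ECS against sham and 0.21 for 11 ECS against single ECS. These rest on 15 or 16 genes, and over all genes the values lay between 0.27 and 0.29. The 3 probe sets of Sema3e shared a direction in both comparisons after earlier sessions. In single ECS against sham they did not, at 1.06-fold lower, 1.41-fold lower and 1.15-fold higher. A second probe set of Efnb2 had 45.8 with 11 ECS, against 83.7 with 10 ECS, and 58.9 with single ECS, against 107.1 with sham. It was lower by 0.87 and 0.86 log2 units after the 2 sessions, while the brightest probe set of Efnb2 was lower by 0.12 and 0.29. For Efnb2 the probe sets shared a direction but not a size. The spread covers probe sets, not mice or arrays.

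**Figure D4:**
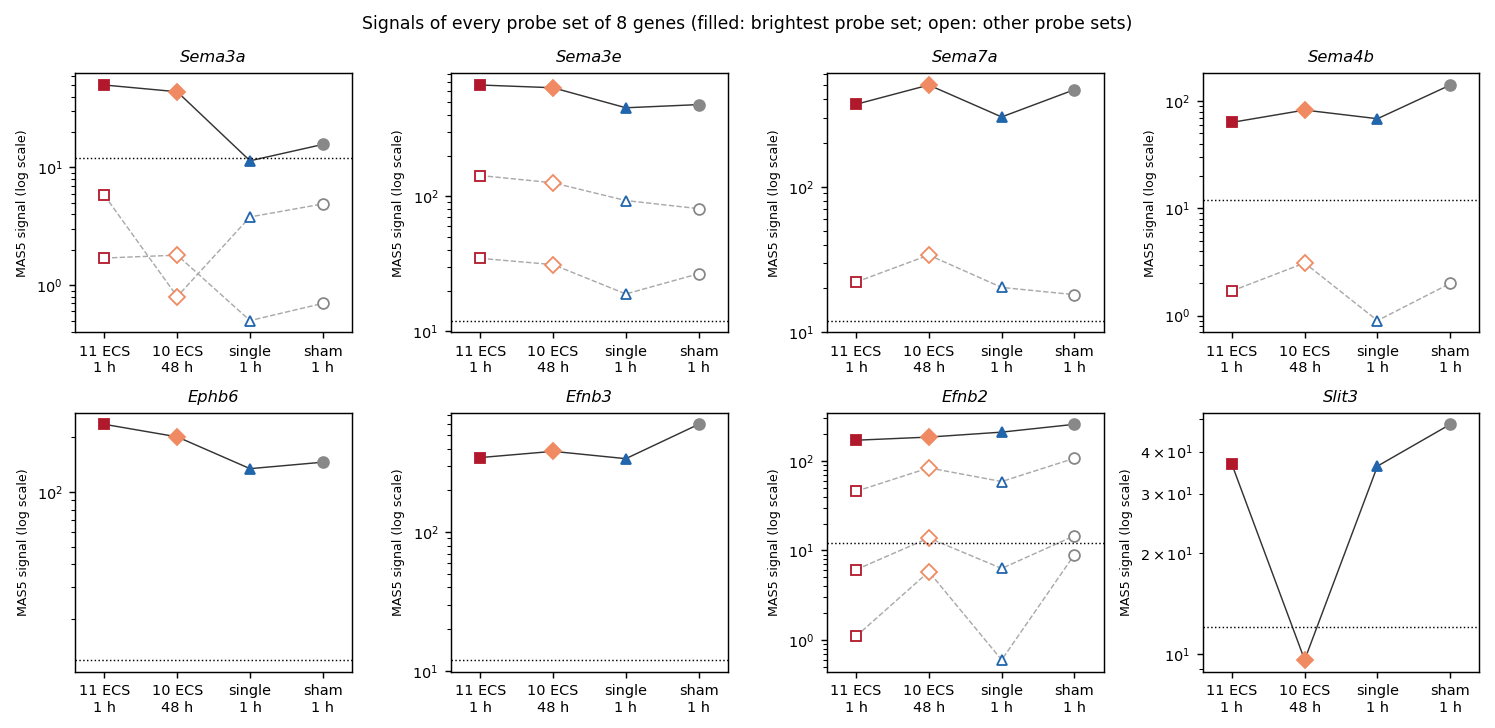
Signals of every probe set of 8 genes on a log axis in MAS5 units, with the 4 arrays across each panel, filled symbols for the brightest probe set, open symbols for the others and a dotted line at the floor of 12. The 3 probe sets of Sema3e are all higher on the 11 ECS and 10 ECS arrays, while only 1 probe set each of Sema3a and Sema4b lies above the floor.

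Other genes of the pathway were read against the shares of all genes given above. Of 25 co-receptors and other guidance cues, 18 were on the array and 16 had a value, with Ntng2 and Met at the floor. In single ECS against sham 1 of the 16 was at least 1.5-fold higher and 1 lower, and in 11 ECS against 10 ECS 1 was higher and 0 lower, beside 3.07% and 15.3% of all genes in the first comparison and 3.47% and 6.91% in the second. Lingo1, a co-receptor of the Nogo receptor, was the higher one each time, with 277.3 for single ECS, against 180.0 for sham, and 302.9 for 11 ECS, against 147.6 for 10 ECS. Both arrays 1 h after a session were thus above both others. The lower one was Cntn2, an adhesion molecule of axons, with 27.4 for single ECS, against 46.6 for sham. In 10 ECS against sham 0 were higher and 2 lower, beside 2.98% and 7.18% of all genes, and in 11 ECS against single ECS 0 were higher and 1 lower, beside 4.39% and 4.3%. Dscam, which can act as a netrin receptor, was lower in both, with 157.2 for 11 ECS, 192.8 for 10 ECS, 245.7 for single ECS and 290.2 for sham. Its relative Dscaml1 had 76.8 with 11 ECS, 84.4 with 10 ECS, 114.1 with single ECS and 128.0 with sham.

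Of 50 intracellular effectors, 45 were on the array and 43 had a value, with Srgap1 and Vav2 at the floor. In single ECS against sham 0 of the 43 were higher and 6 lower, beside 3.07% and 15.3% of all genes. The 6 were Abl1, Tiam1, Trio, Vav3, Sh3bp1 and Dpysl3. In 11 ECS against 10 ECS 1 was higher and 2 lower, beside 3.47% and 6.91% of all genes. In 10 ECS against sham 3 were higher and 2 lower, beside 2.98% and 7.18%, and in 11 ECS against single ECS 2 were higher and 1 lower, beside 4.39% and 4.3%. Dpysl3, a collapsin response mediator that acts downstream of semaphorins, had 235.8 with 11 ECS, 248.9 with 10 ECS, 121.9 with single ECS and 183.1 with sham. The 2 arrays after earlier sessions were above the other 2. Its relative Dpysl5 went the other way, with 34.8 for 11 ECS, 36.1 for 10 ECS, 63.0 for single ECS and 45.7 for sham. Dpysl5 was the gene that was lower with 11 ECS than with single ECS, by 1.81-fold. Of other relatives, Dpysl4 and Crmp1 passed 1.5-fold in no comparison, and the dim Dpysl2 had 25.4, 9.2, 13.9 and 13.4 in that order. The medians of the 2 lists, relative to all genes, lay between -0.01 and 0.08 in the 4 comparisons.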

How the data were processed

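RNA of the dentate gyrus, pooled from 3 mice a group, was hybridised by the authors to 4 Affymetrix Mouse Genome 430A 2.0 arrays after amplification of 100 ng with a 3' in vitro transcription kit. The deposited table holds a MAS5 intensity for every probe set on every array, not log-transformed. How the arrays were scaled to each other was not stated in the sources used here. Sample titles gave the groups, although free-text descriptions of 3 samples name a treatment that differs from their titles, sources and treatment fields. The members, gene lists and marker lists were chosen with earlier results of these data known.

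Of 22626 probe sets besides 64 controls, 20380 had a single symbol, 691 several and 1555 none. All 58 member symbols were in the RefSeq gene table of GRCm38.p6. Each gene was read from the brightest of its probe sets, by mean over the arrays. Signals under 12 were set to 12, and a ratio with 1 array at this floor is a bound, written as at least N-fold. Genes at the floor on both arrays had no value. Log2 ratios were computed with Python 3.11.15, numpy 2.4.6 and pandas 2.3.3 and were tested on simulated data. With 1 array per group no error between mice or arrays could be measured, so no standard error or p-value was computed and the number of arrays limits the precision. Counts were made at 1.5-fold and 2-fold beside those over all genes.

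Members named with all 4 signals were, for each comparison and among those whose brighter array reached 48, the 4 highest and 4 lowest ratios and up to 2 bounds each way. The 2 brightest members of each class, members that passed 1.5-fold the same way in both responses and the 3 highest and 3 lowest differences of responses were added. Dim members that passed 1.5-fold, Sema3c, Sema6a, Sema6c and Efna4 among them, were named after their values were seen. So was Ntn1, which was dim and passed 1.5-fold in no comparison. The alternatives were a floor of 50, scaling to equal medians, quantile normalization and the median over a gene's probe sets.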

Additional observations from a re-analysis of the deposited data

Results flagged for a closer look

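The ratios of Slit3 differed in sign between the 2 responses. Slit3 was 1.33-fold lower with single ECS than with sham, at 36.2 against 48.2, which is under the 1.5-fold limit. It was higher with 11 ECS than with 10 ECS, at 36.7 against 9.6. Only the 10 ECS array stood apart, and the gene had 1 probe set. The difference of the log2 ratios was 2.03, which is a lower bound because the 10 ECS array was at the floor. The difference was not tested, since each group had 1 array.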

How the results depend on the processing

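With a floor of 50 signal units, single ECS against sham had 5 members at least 1.5-fold lower, beside 10.8% of all genes. 11 ECS against 10 ECS had 0 higher and 1 lower, beside 1.93% and 2.95%, 10 ECS against sham had 0 higher and 3 lower, beside 0.694% and 3.94%, and 11 ECS against single ECS had 1 higher and 0 lower, beside 1.32% and 2.42%. Genes such as Efna2, Sema5b and Dcc have no value with this floor. With arrays scaled to equal medians, single ECS against sham had 3 lower, 11 ECS against 10 ECS had 4 higher, 10 ECS against sham had 7 higher and 3 lower, and the median difference of responses was 0.0212 in place of 0.17. With quantile normalization, single ECS against sham had 4 lower and 10 ECS against sham had 6 higher and 3 lower. The median of the members relative to all genes in 11 ECS against 10 ECS was 0.0240 in place of -0.01 under quantile normalization. That in single ECS against sham was -0.0156 in place of -0.12 with the median over a gene's probe sets. The cause was not tested beyond what each setting changes by construction. Of the named genes' log2 ratios, 4 of 93 moved by more than the spread between probe sets with a floor of 50, 30 of 120 with median scaling, 3 of 120 with quantile normalization and 4 of 120 with the median over probe sets, and 0 of those past 1.5-fold changed sign. No paired analysis was possible because each group had 1 array of pooled RNA. For the same reason no replicate could be left out, and dim signals near the floor limit what can be said of Sema3a, Slit3, Sema5b, Efna2 and Dcc.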
